A study of Mus musculus with 16 samples.

Results

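The comparison described here is that of the Foxp2 virus with the control virus in the striatum of BACHD mice, over 4 mice per virus. Its members are the 8 BACHD libraries of the 16 in the series, chosen by the genotype and virus labels alone, and all genes were fitted from the read counts. The BACHD line is a model of Huntington disease in which the whole mutant human huntingtin gene is present on a bacterial artificial chromosome. All mice were harvested at 13 months. The group BACHD+Con has the BACHD genotype and the control virus, and BACHD+Foxp2 the BACHD genotype and the virus for Foxp2. Both groups therefore carry the transgene and an injected virus, and neither is an uninjected control. Mice of control genotype given the same viruses, Con+Con and Con+Foxp2, also 4 per group, are used below where the response of BACHD mice is set beside theirs. The sources used here do not give the virus type, its promoter, the infected cells, the interval from injection to harvest or the content of the control virus. Nothing in the labels says whether the mice came from separate litters or days.

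FOXP2 is a forkhead transcription factor that binds DNA as a dimer with itself or with its relatives FOXP1 and FOXP4, mostly as a repressor, and is best known for its role in speech and vocal learning. In the striatum it is expressed by the projection neurons, which release GABA and carry either the dopamine receptor DRD1 (direct pathway) or DRD2 (indirect pathway). The remaining striatal neurons are interneurons, among them the large cholinergic cells that supply the striatum with acetylcholine. Projection neurons lose much of their characteristic expression in Huntington disease and in its mouse models.

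Of 13563 genes tested, 33 changed with the Foxp2 virus in BACHD mice, 12 upward (0.0885% of tested genes) and 21 downward (0.155%). The test is edgeR's quasi-likelihood test, a change is an adjusted p under 0.05 after Benjamini-Hochberg adjustment over all tested genes, and every adjusted p below comes from it unless another tool is named. Levels are CPM, reads scaled to a common library total, given in the order mouse 1 to mouse 4. With the 4 values of each group all on one side of those of the other were 241 genes higher (1.78%) and 320 lower (2.36%). The 33 genes do not overlap between the viruses with 1 exception, Lamp5. Across all tested genes the median log2 difference was 0, and 50.2% were higher with the Foxp2 virus.

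**Figure D1:**
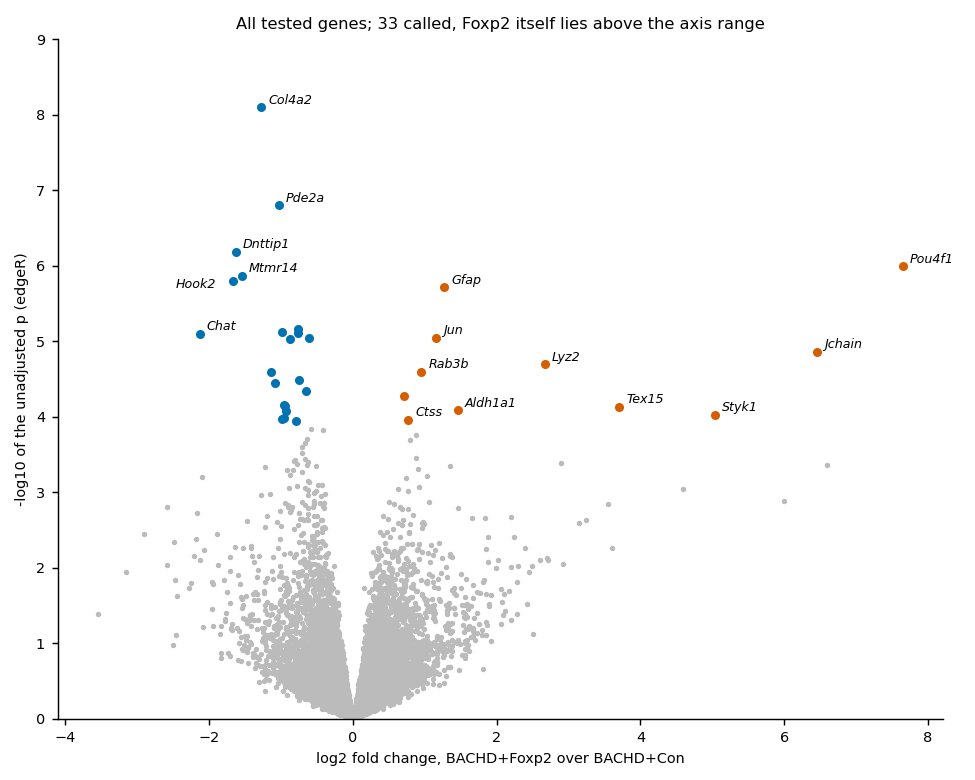
Each point is 1 of 13563 tested genes, with the log2 fold change of BACHD+Foxp2 over BACHD+Con on the horizontal axis and minus log10 of edgeR's unadjusted p on the vertical axis. Orange points are the genes that rose and blue points those that fell, 33 with Foxp2 itself, which lies above the range drawn. Pou4f1, Jchain and Styk1 had at most 1 read in BACHD+Con, so their horizontal position depends on the fit and is no measure of size.

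The 8 libraries held 2660395 to 3141354 reads assigned to genes, and 3 reads in 1 library correspond to 0.957 to 1.16 CPM. The assigned reads were 22.6 to 24.7% of the total with the summary lines of the counts included. A further 38.7 to 42.2% fell in no annotated feature and 34.5 to 37.2% were not uniquely aligned. Of the markers of striatal projection neurons, 24 of 24 passed the filter on low counts, with a summed level of 9630 to 15200 CPM. Passing alone does not identify the tissue, since 12 of 12 cortical excitatory and 13 of 13 choroid plexus and ependyma markers passed too. The libraries also differed in markers of neighbouring tissue. Markers of choroid plexus and ependyma summed to 10800 CPM in mouse 2 of BACHD+Con and to 5110 in mouse 3 of BACHD+Foxp2, against 126 to 440 in the other BACHD libraries. Markers of cortical excitatory neurons summed to 350 and 363 CPM in BACHD+Con mice 2 and 3 and to 843 to 1520 in the other BACHD libraries, so that the low libraries were both in the control-virus group. No library was left out for this. Without the 2 libraries highest in choroid plexus markers 12 genes were called, and without the 2 lowest in cortical markers, which leaves 2 mice in BACHD+Con, 5 were called (both alternatives were added after seeing the data). With the cortical marker level as a covariate 31 genes were called, 27 of them among the 33.

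**Figure D2:**
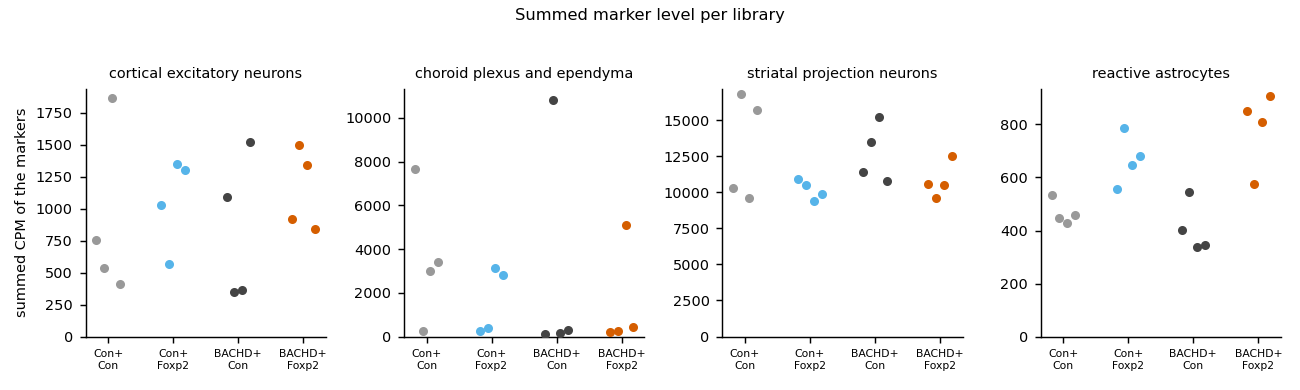
Summed CPM of 4 marker lists on the vertical axis, 1 point per library in the 4 groups on the horizontal axis. Cortical markers are at 350 and 363 CPM in BACHD+Con mice 2 and 3, choroid plexus markers stand out at 10800 CPM in BACHD+Con mouse 2 and 5110 CPM in BACHD+Foxp2 mouse 3, and reactive astrocyte markers are at 336 to 544 CPM in the control-virus and 576 to 906 CPM in the Foxp2-virus BACHD mice. Gfap alone has means of 207 and 501 CPM in the latter groups, within reactive astrocyte means of 407 and 785 CPM.

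Foxp2 itself was the gene with the smallest p. Its levels were 87.3, 129, 153 and 105 CPM with the control virus and 1730, 1290, 1430 and 1930 CPM with the Foxp2 virus. Every mouse given the Foxp2 virus lay far above every mouse given the control virus, by 13.5-fold between the means (log2 fold change 3.75, SE 0.18, adjusted p = 2.39e-12). An exact permutation test of the 4 against 4 values, two-sided, gave p = 0.0286, the smallest it allows. Reads of the delivered and of the endogenous gene cannot be told apart in gene counts. In control mice the same virus gave 3820, 4390, 4350 and 3500 CPM, all above the highest BACHD+Foxp2 mouse. Under the Foxp2 virus the level in BACHD mice was thus lower than in control mice (log2 difference -1.33, SE 0.16, adjusted p = 9.64e-05). The test of the difference between the genotypes' responses to the virus, the interaction, gave -1.34 for Foxp2 (adjusted p = 0.077), and the lower Foxp2 level in BACHD mice stands beside every comparison of the genotypes below.

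The partners of FOXP2 did not pass the test. Foxp1, which is abundant in the same projection neurons, was at 417, 529, 627 and 466 CPM with the control virus and at 394, 342, 433 and 496 CPM with the Foxp2 virus (log2 difference -0.29, SE 0.15, adjusted p = 0.659). Foxp4 gave 0.22 (SE 0.22, adjusted p = 0.881), and the groups overlapped for both. Counts for Htt, the huntingtin gene, ranged from 470 to 767 CPM under the control virus and from 483 to 594 CPM under the Foxp2 virus (log2 difference -0.14, SE 0.12, adjusted p = 0.862). They were 264 to 323 CPM in Con+Con and 246 to 272 CPM in Con+Foxp2, so BACHD mice were higher under either virus (log2 difference 1.08 and 1.11, adjusted p = 9.39e-05 and 6.36e-05). Reads of the mouse gene and of the human transgene cannot be told apart in these counts. A list of 10 FOXP2 targets known from other studies had 7 tested genes, 3 higher and 4 lower, none of which changed (median log2 difference -0.07). Vldlr, the reelin receptor, had the lowest p of these, at 142, 174, 199 and 138 against 183, 82.8, 108 and 128 CPM (-0.38, adjusted p = 0.634).

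Col4a2 had the smallest p after Foxp2. It encodes the alpha-2 chain of collagen IV, the network-forming collagen of basement membranes, and lies on chromosome 8 (GRCm38, 11312805 to 11449287, plus strand). Its level was 162, 157, 192 and 165 CPM with the control virus and 82.3, 69.7, 78.1 and 49.1 CPM with the Foxp2 virus. The highest Foxp2-virus mouse was well under the lowest control-virus mouse, and Col4a2 fell by 1.27 on the log2 scale (SE 0.14, adjusted p = 5.36e-05). Col4a1, the alpha-1 chain that assembles with it, is read from the opposite strand of the same start region (11198423 to 11312826), and the exons of both genes share 22 bases. Col4a1 was at 83.2, 86.9, 121 and 79.4 CPM against 30.4, 78.9, 55.1 and 38 CPM. All 4 Foxp2-virus mice were below the control-virus mice, mouse 2 only just, and the difference of -0.87 (SE 0.22) did not pass (adjusted p = 0.14). In control mice both chains fell, Col4a2 by 1.29 (adjusted p = 3.15e-05) and Col4a1 by 1.39 (adjusted p = 0.00411).

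The start region of Col4a2 is shown because both chains were lower. It is RefSeq's promoter window of Col4a2, 250 bases before to 50 after the start, GRCm38.p6, chr8:11312555-11312854, plus strand:
Col4a2: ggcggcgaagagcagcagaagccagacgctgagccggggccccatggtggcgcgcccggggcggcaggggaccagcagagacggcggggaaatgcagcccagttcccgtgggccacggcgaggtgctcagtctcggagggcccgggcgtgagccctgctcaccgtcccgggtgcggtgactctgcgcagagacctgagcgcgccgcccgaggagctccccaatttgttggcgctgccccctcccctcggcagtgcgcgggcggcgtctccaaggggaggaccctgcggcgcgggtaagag
It has 73.7% G and C and holds none of the 3 motifs searched for below. Most of this window lies inside Col4a1, which starts at 11312826 on the minus strand. It therefore says little of the sequence upstream of Col4a1.

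Other components of the basement membrane did not move with Col4a2. Of 22 tested members of that list, including the laminins, nidogens, perlecan (Hspg2) and agrin (Agrn), 10 were higher and 12 lower, 1 was called, and the median was -0.03 (-0.22 in control mice). The next by p after the collagen IV pair was the laminin chain Lamc3, at 7.9, 4.29, 8.39 and 8.86 against 23.8, 13.7, 12 and 6.7 CPM (0.93, adjusted p = 0.631). The summed level of the list was 922 to 1240 CPM with the control virus and 846 to 1020 CPM with the Foxp2 virus. Endothelial markers, 12 tested, were higher in 6 and lower in 6, and mural cell markers, 9 tested, were higher in 5 and lower in 4. None of these vessel markers was called.

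Pde2a, which fell, encodes a phosphodiesterase that breaks down cyclic AMP and is activated by cyclic GMP. Its levels were 832, 986, 1000 and 732 CPM against 382, 437, 451 and 470 CPM, so the Foxp2-virus mice were at about the same level and all lower (-1.03, SE 0.14, adjusted p = 0.000716). In the annotation 64.3% of its exonic bases also belong to a predicted readthrough gene on the same strand, Gm45837, so how its reads were assigned is uncertain. Of 18 tested phosphodiesterases 7 were higher and 11 lower, with a median of -0.18, and Pde2a was the only one called. Pde8b was at 130 to 143 CPM with the control virus and at 83.1 to 119 CPM with the Foxp2 virus (-0.39, adjusted p = 0.388), and Pde10a, the projection neuron enzyme, overlapped between the groups (-0.29, adjusted p = 0.774).

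Dgki, a diacylglycerol kinase that turns the messenger diacylglycerol into phosphatidic acid, was at 288, 336, 338 and 286 CPM against 188, 167, 174 and 204 CPM. It fell by 0.77 with no overlap (SE 0.13, adjusted p = 0.00845). Of the 10 kinases of this family 8 were lower (median -0.12), and Dgkz, also without overlap, gave -0.67 (adjusted p = 0.113). Tpcn1, a cation channel of endosomes and lysosomes, fell by 0.88 (SE 0.16, adjusted p = 0.00845), from 89 to 114 CPM down to 47.5 to 66.8 CPM. Map2k5, the kinase that activates ERK5, fell by 0.96 (adjusted p = 0.0383). In control mice the log2 difference was -0.73 for Dgki (adjusted p = 0.0141), -0.70 for Tpcn1 (adjusted p = 0.0615) and -1.06 for Map2k5 (adjusted p = 0.0173).

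Cacna2d3, an auxiliary subunit that brings voltage-gated calcium channels to the membrane, was at 366, 477, 499 and 349 CPM against 245, 212, 223 and 292 CPM (-0.80, SE 0.17, adjusted p = 0.0474). Its relative Cacna2d2 was at 256, 270, 328 and 175 CPM against 185, 110, 125 and 166 CPM, which overlap (-0.81, adjusted p = 0.116). The T-type pore subunit Cacna1g lay the other way, at 64.6, 38.3, 21.8 and 80.6 against 94, 94.6, 109 and 98.9 CPM (0.95, adjusted p = 0.257). The 16 calcium channel subunits tested were divided 6 higher to 10 lower, with a median of -0.10. On the release side, Rab3b, a small GTPase of synaptic vesicles, rose from 32, 28.1, 29.9 and 29.3 CPM to 42.8, 62.8, 55.7 and 68.3 CPM. The control-virus mice were nearly equal and all lower (0.95, SE 0.18, adjusted p = 0.0182). It was the only one of 12 tested Rab3 and release genes to be called, and their median was 0.01.

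**Figure D3:**
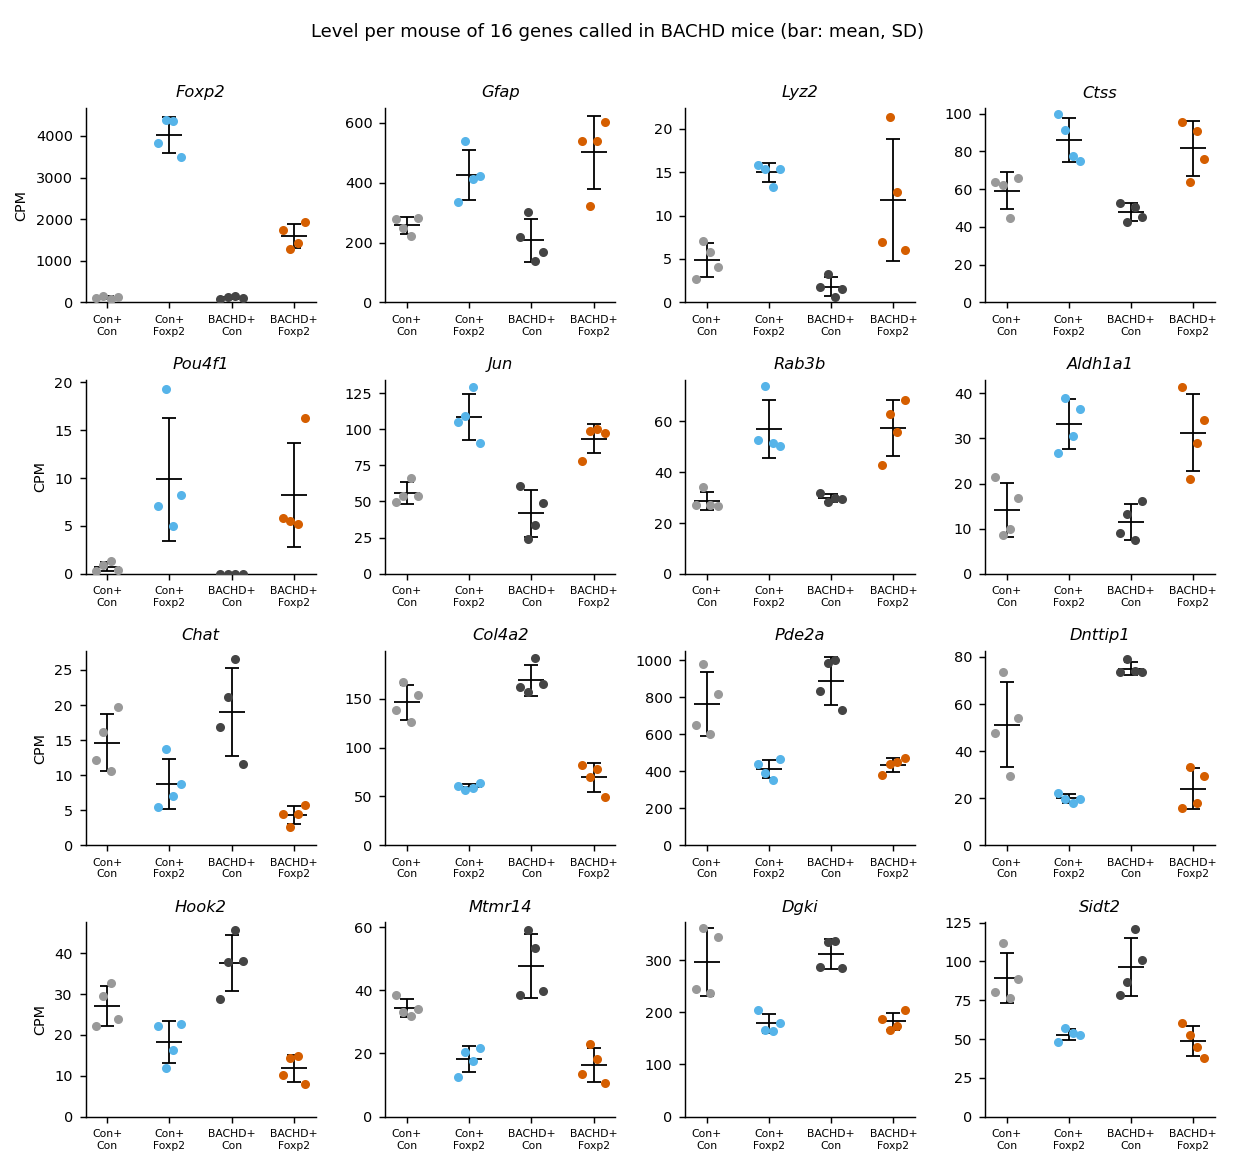
Level in CPM on the vertical axis for 16 of the genes called in BACHD mice, 1 point per mouse in the 4 groups, with the bar at the mean and the whiskers at 1 SD. Foxp2 is at 3500 to 4390 CPM in Con+Foxp2 and at 1290 to 1930 CPM in BACHD+Foxp2, whereas Col4a2, Pde2a and Dgki sit at similar levels in both Foxp2-virus groups.

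Chat encodes choline acetyltransferase, the enzyme that makes acetylcholine and defines the cholinergic interneuron. It was at 16.8, 21.1, 26.5 and 11.6 CPM with the control virus and at 4.39, 2.62, 4.47 and 5.74 CPM with the Foxp2 virus. Every Foxp2-virus mouse was at less than the lowest control-virus mouse, 4.42-fold lower between the means (-2.13, SE 0.37, adjusted p = 0.00845). Slc5a7, the choline transporter of the same cells, was at 24.4, 20.5, 34.9 and 16.2 CPM against 19, 5.89, 3.78 and 0.957 CPM, with mouse 1 of BACHD+Foxp2 inside the range of the control virus (-1.71, SE 0.58, adjusted p = 0.388). Slc17a8, the vesicular glutamate transporter these cells also use, gave -1.38 (adjusted p = 0.419). The transcription factor Isl1, which is also counted among the direct pathway markers below, gave -0.86 (adjusted p = 0.651). Of 11 tested cholinergic markers 10 were lower and 1 higher, with a median of -0.86, beside 0 over all genes, and Chat alone was called. In bulk tissue fewer cells of a type and less RNA per cell cannot be told apart.

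The summed level of these markers was 151, 202, 215 and 125 CPM with the control virus and 148, 101, 75.4 and 110 CPM with the Foxp2 virus, so the groups overlap in mouse 1 of the latter. The median of the cholinergic list ranged from -1.37 to -0.50 over the alternatives, the latter with the cortical marker covariate. Chat lost its call without BACHD+Con mouse 3 (adjusted p = 0.0698), with the limma-voom test, and in both fits that left out 2 libraries by their marker levels. In control mice the list median was -0.93 and Chat gave -0.74 (adjusted p = 0.694). The GABAergic interneuron list, 15 tested, held 3 higher and 12 lower members, none called, with a median of -0.13.

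Genes of the projection neurons were mostly slightly lower and none passed. The 24 general markers held 22 lower and 2 higher members with a median of -0.27, the 8 direct pathway markers 7 lower (median -0.34) and the 8 tested indirect pathway markers 7 lower (median -0.20). Ptpn5, the striatal phosphatase STEP, had the lowest p, at 472, 535, 598 and 419 CPM against 355, 309, 350 and 435 CPM (-0.48, SE 0.16, adjusted p = 0.388). Drd1 was at 119, 127, 174 and 114 against 132, 106, 99.4 and 136 CPM (-0.17, adjusted p = 0.908). Drd2 was at 71.8, 103, 120 and 80.2 against 92.2, 58.9, 76.7 and 74.6 CPM (-0.31, adjusted p = 0.782). In both receptor genes the groups overlap and the highest value is that of BACHD+Con mouse 3.

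Of 21 genes known to be lowered in Huntington models, among them Penk, Ppp1r1b and Adora2a, 19 were lower with the Foxp2 virus, 2 were higher and none was called (median -0.23). Penk, Ppp1r1b and Adora2a are also counted in the projection neuron lists above, so the counts of these lists are not separate results. With the cortical markers as a covariate the median of the 24 projection neuron markers was -0.05, and Drd1, Penk, Pdyn, Ppp1r1b, Scn4b, Adora2a and Rarb had the opposite sign. The same lists were lower in control mice given the Foxp2 virus, with medians of -0.43 for the projection neuron markers and -0.46 for the genes lowered in Huntington models. Under the control virus 2 genes were called between the BACHD and the control genotype, Htt and Msantd1 (named after its values were seen, 29.6 CPM in BACHD+Con against 2.62 CPM in Con+Con, adjusted p = 0.016), and the median of the genes lowered in Huntington models was -0.03 for BACHD+Con against Con+Con.

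Gfap, the intermediate filament protein of astrocytes that increases when they become reactive, rose. It was at 220, 303, 139 and 168 CPM with the control virus and at 541, 323, 538 and 604 CPM with the Foxp2 virus, where mouse 2 was only just above the highest control-virus mouse (1.27, SE 0.20, adjusted p = 0.00326). The 16 tested genes of reactive astrocytes were higher in 14 and lower in 2, with a median of 0.54 and 1 call. H2-D1 is counted here and among the antigen-presentation genes below, so these counts are not separate results. Gfap made up a mean of 207 of 407 CPM of the list with the control virus and 501 of 785 CPM with the Foxp2 virus. In control mice 10 of the 16 reactive astrocyte genes were higher (median 0.12), and the summed level was 427 to 535 CPM against 555 to 788 CPM. Gfap there was at 279, 248, 221 and 283 CPM against 335, 538, 412 and 422 CPM, also without overlap (0.73, adjusted p = 0.182). The interaction for Gfap was 0.54 (unadjusted p = 0.0646). Vim, another filament protein of these cells, was at 31.3, 67.1, 45.7 and 35.8 against 90, 46.5, 61.6 and 68.9 CPM, which overlap (0.57, adjusted p = 0.5). General astrocyte markers had a median of 0.08 over 14 genes, 9 of them higher. Aqp4, the water channel of astrocyte endfeet, was at 129, 112, 81.9 and 85.6 against 233, 140, 128 and 196 CPM (0.77, SE 0.20, adjusted p = 0.177), with 1 Foxp2-virus mouse at the level of the control virus.

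Among genes of microglia and other myeloid cells, Ctss and Lyz2 rose. Ctss, the lysosomal protease cathepsin S, was at 52.6, 42.6, 50.7 and 45.5 CPM against 95.8, 63.8, 90.8 and 76.2 CPM (0.77, SE 0.17, adjusted p = 0.0465). Lyz2, a lysozyme of macrophages and microglia, was at 1.72, 3.3, 0.672 and 1.54 against 6.95, 21.3, 12.7 and 6.06 CPM, 6.50-fold higher between the means (2.67, SE 0.50, adjusted p = 0.0161). Of 18 tested microglial genes 15 were higher and 3 lower, with a median of 0.20 and Ctss the only call. Cx3cr1, the fractalkine receptor, was higher in all 4 Foxp2-virus mice, at 35.4 to 42.1 CPM against 23.1 to 28.9 CPM (0.54, adjusted p = 0.388). Its level was 35 to 44 CPM in Con+Con and 25.9 to 43.1 CPM in Con+Foxp2 (-0.07). Aif1, which encodes Iba1, overlapped in BACHD mice (0.22, adjusted p = 0.926). The summed microglial level in BACHD mice was 327 to 388 CPM against 420 to 470 CPM, which do not overlap. In control mice it was 359 to 414 CPM against 423 to 492 CPM, also without overlap. The 8 tested genes of other or activated myeloid cells were divided 4 to 4 in BACHD mice (median -0.06).

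Jchain encodes the joining chain of secreted IgM and IgA antibodies and is best known from plasma cells. It had 1 read in the 4 BACHD+Con libraries together and 135 in the BACHD+Foxp2 libraries, at 5.12, 16.4, 8.26 and 15 CPM (adjusted p = 0.0118). The ratio of the scaled reads was 131, with an exact 95% counting interval of 23.2 to 5230 that covers counting error only. Of 15 listed B and plasma cell genes, 9 of them in the count table, it alone passed the filter, so no other marker of those cells could be tested. In Con+Con it was at 0, 8.36, 6.11 and 0 CPM and in Con+Foxp2 at 11.6, 13.1, 9.28 and 15 CPM. The gene was thus detected in 2 of the 4 Con+Con mice, and its levels with the Foxp2 virus were similar in both genotypes.

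No interferon-response or antigen-presentation gene was called, and most members of both lists were higher. Of 15 tested interferon-response genes 13 were higher and 2 lower, with a median of 0.76, and 8 had an unadjusted p under 0.05, beside 1048 of 13563 over all genes. Stat2, a transcription factor of the type I interferon pathway, was at 16.2, 27.4, 18.1 and 21.6 against 27.1, 36, 38.2 and 39.9 CPM, mouse 1 being just under the highest control-virus mouse (0.76, adjusted p = 0.217). Gbp3, an interferon-induced GTPase, was at 0.687, 3.63, 8.06 and 1.54 against 13.9, 5.56, 21.3 and 9.89 CPM (1.83, SE 0.53, adjusted p = 0.248). For antigen presentation 10 of 11 tested genes were higher (median 0.88). B2m, which encodes the small invariant subunit of class I molecules, was at 32.6, 45.6, 42.6 and 43.2 against 79.7, 54.7, 47.8 and 82.9 CPM (0.69, adjusted p = 0.248), and the class I gene H2-D1 gave 0.89 (adjusted p = 0.379), both without overlap. In control mice the median was 0.11 for the interferon list and 0.81 for antigen presentation. The summed level of the interferon list was 107 to 167 CPM in BACHD+Con and 172 to 232 CPM in BACHD+Foxp2. It was 143 to 193 CPM in Con+Con and 194 to 222 CPM in Con+Foxp2. For BACHD+Con against Con+Con the median of the interferon list was -0.40. For the Foxp2 virus in BACHD mice, the medians of both lists stayed above 0 under every alternative run, at 0.65 to 1.09 and 0.61 to 1.10. These medians cover only genes that passed the main filter on low counts, so the fit without a filter does not test it. A gene low with the control virus can pass through its Foxp2-virus libraries alone, which favours rises. Oasl2, at 0.385 to 2.75 CPM in BACHD+Con and 2.95 to 7.57 CPM in BACHD+Foxp2, is such a gene.

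**Figure D4:**
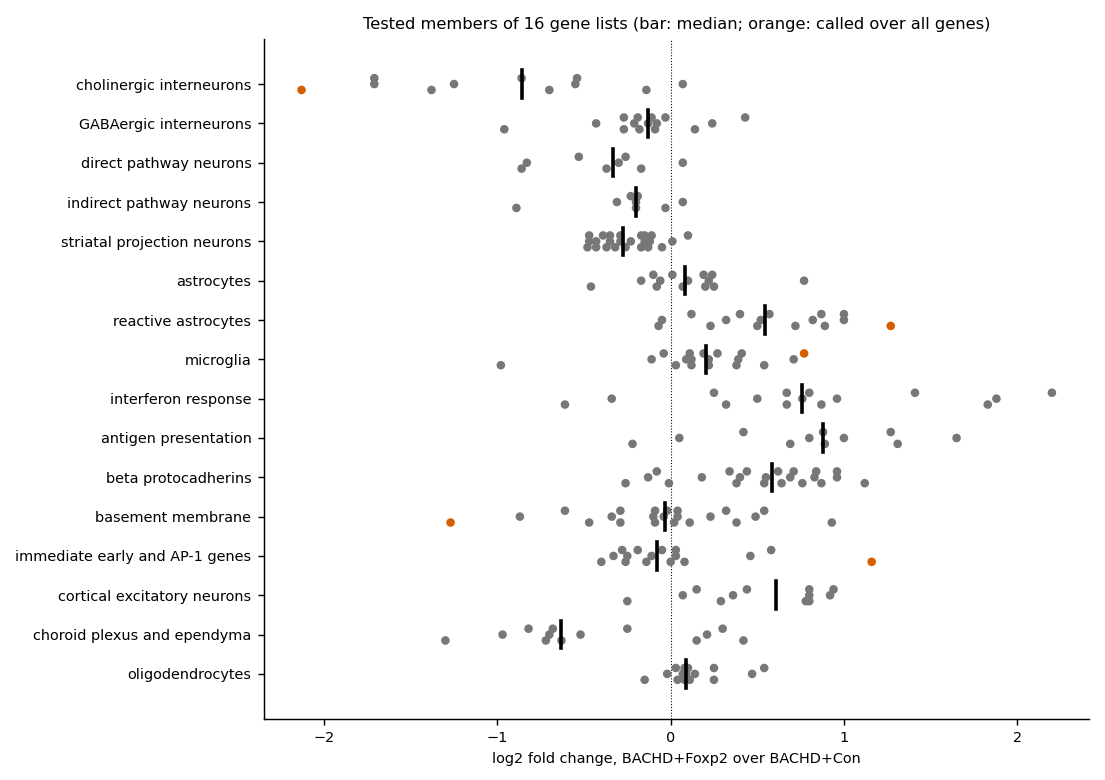
Each point is a tested member of the list named on the vertical axis, with its log2 fold change of BACHD+Foxp2 over BACHD+Con on the horizontal axis; black bars are list medians and orange points are genes called over all 13563. The cholinergic bar is at -0.86 with Chat at the far left, and the bars of the interferon and antigen-presentation lists, which hold no orange point, are at 0.76 and 0.88.

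Jun, a subunit of the AP-1 transcription factor, rose from 60.8, 24.4, 33.6 and 48.9 CPM to 78.3, 98.5, 99.8 and 97.6 CPM (1.16, SE 0.20, adjusted p = 0.00845). The other 15 tested immediate early and AP-1 genes did not pass, the list being 6 higher to 10 lower with a median of -0.08. Fosl2, for example, was at 36.3 to 40.9 CPM against 24.5 to 35.7 CPM (-0.40, adjusted p = 0.709). Jun lost its call in the fit of the 8 BACHD libraries alone (adjusted p = 0.062), without BACHD+Con mouse 3 (adjusted p = 0.0698), without the 2 libraries highest in choroid plexus markers (adjusted p = 0.0804) and without the 2 lowest in cortical markers (0.77, adjusted p = 0.275). Its lowest values were those of the latter libraries, BACHD+Con mice 2 and 3.

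Pou4f1, a transcription factor gene known from other parts of the nervous system, rose with the Foxp2 virus. It encodes BRN3A, a factor of sensory and habenular neurons, and had 0 reads in all 4 BACHD+Con libraries and 99 in BACHD+Foxp2, at 5.85, 5.56, 5.16 and 16.3 CPM. Against a floor of 3 counts over the group this is at least 32.1-fold higher (adjusted p = 0.00276). Of 6 tested markers of habenula and thalamus 3 were higher, 3 lower and none called, and the habenular receptor Gpr151 was at 0.33 to 5.78 CPM against 0.319 to 2.95 CPM. In control mice Pou4f1 was at 0.295, 0.965, 1.29 and 0.372 CPM with the control virus and at 7.08, 19.3, 4.97 and 8.19 CPM with the Foxp2 virus.

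Of 33 developmental transcription factors listed, 5 passed the filter on low counts and 12 had no read in the BACHD libraries. Cdx2, a factor of the gut epithelium, was at 0, 0.991, 0 and 0 against 4.02, 4.58, 2.41 and 2.87 CPM (adjusted p = 0.213), and Foxf1, a forkhead factor of visceral mesoderm, was at 0 to 0.661 against 0.366 to 3.51 CPM (adjusted p = 0.403). Both rose in control mice (adjusted p = 0.0178 and 0.00602). Like Pou4f1, they passed the filter only because of Foxp2-virus libraries, Foxf1 through those of control mice. Their being higher with that virus is therefore partly built in, and a fall could hardly have been seen. The same holds for Jchain, Tex15 and Styk1. Pax7, named after its values were seen, was not among the genes detected with the Foxp2 virus in BACHD mice: its mean went from 0.457 CPM with the control virus to 0, whereas in control mice it went from 0 to 8.79 CPM. The interaction for Pax7 had an unadjusted p of 8.01e-05 and an adjusted p of 0.362.

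Tex15, Styk1, Aldh1a1 and Pik3r3 also rose. Tex15, needed for meiosis in male germ cells, was at 1.03, 0.991, 1.01 and 0 CPM against 11, 11.8, 4.47 and 15 CPM (3.70, SE 0.77, adjusted p = 0.0383), the only call among 5 tested meiosis genes. Styk1, a kinase-like membrane protein, had 1 read against 50, a ratio of 48.6 with an exact 95% counting interval of 8.34 to 1960 (adjusted p = 0.0442). Aldh1a1, which makes retinoic acid, was at 8.94, 13.2, 7.39 and 16.2 CPM against 41.3, 20.9, 28.9 and 34.1 CPM (1.46, SE 0.30, adjusted p = 0.0413). Pik3r3, a regulatory subunit of PI3 kinase, rose by 0.71 (SE 0.14, adjusted p = 0.0316), from 48.4 to 71.5 CPM up to 87.8 to 107 CPM, with 24.3% of its exonic bases shared with a predicted gene, Gm49337.

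The clustered beta protocadherins, adhesion proteins that give neurons surface identities, held no call, and most were higher. All 22 were tested, 18 were higher and 4 lower, with a median of 0.58, and 8 had an unadjusted p under 0.05, beside 1048 of 13563 over all genes. Pcdhb18 was at 17.9, 14.2, 17.5 and 5.78 against 34, 25.2, 24.8 and 24.2 CPM (0.96, SE 0.29, adjusted p = 0.272), and Pcdhb17 at 19.6 to 25.1 against 25.8 to 42.1 CPM (0.64, adjusted p = 0.379). The summed level was 255 to 346 CPM with the control virus and 351 to 467 CPM with the Foxp2 virus, without overlap. These genes are related and similar in sequence, so some reads could have been assigned to the wrong member or dropped as multiply aligned. In control mice all 22 were higher (median 0.68) and Pcdhb18 rose (1.47, adjusted p = 0.0263).

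The remaining falls were in genes of gene regulation, transport and metabolism. Dnttip1, a subunit of the mitotic histone deacetylase complex, was at 73.5, 79.3, 73.9 and 73.6 CPM against 15.7, 33.4, 17.9 and 29.3 CPM, the control-virus mice being almost equal (-1.63, SE 0.24, adjusted p = 0.00221). Its 3 tested partners were also lower but not called, Elmsan1 with -0.28 (adjusted p = 0.743). Hook2, which links cargo and the centrosome to dynein, was at 28.9, 38, 45.7 and 38.2 CPM against 10.2, 14.4, 14.8 and 7.97 CPM (-1.67, SE 0.26, adjusted p = 0.00306). Of the 7 tested Hook genes and partners, Hook2 included, 4 were higher and 3 lower. Mtmr14, a phosphoinositide phosphatase, was at 38.5, 59.1, 53.4 and 39.7 CPM against 13.5, 22.9, 18.2 and 10.5 CPM (-1.55, SE 0.24, adjusted p = 0.00306). The 12 tested myotubularins had a median of 0.09.

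Vars2, the mitochondrial valyl-tRNA synthetase, was at 37.8, 50.5, 47.3 and 46.2 CPM against 24.5, 18, 21.3 and 18.8 CPM (-1.14, SE 0.22, adjusted p = 0.0182). Nars2, the mitochondrial asparaginyl-tRNA synthetase, was also without overlap, at 18.5 to 29.2 against 7.23 to 13.7 CPM (-1.22, adjusted p = 0.119). Of 17 mitochondrial synthetases 12 were lower (median -0.15). Sidt2, a lysosomal membrane protein that takes up RNA, was at 78.4, 86.5, 121 and 101 CPM against 60.4, 52.4, 44.7 and 37.6 CPM (-0.99, SE 0.17, adjusted p = 0.00845). Tomm6, a small subunit of the outer mitochondrial import pore, fell by 0.97 (adjusted p = 0.0465), from 41.3 to 52.8 CPM down to 15.1 to 32.2 CPM. Since 84.2% of its exonic bases belong to other genes as well, its value is uncertain.

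Evl, an actin regulator of the Ena/VASP family, was at 181, 230, 220 and 176 CPM against 95.5, 128, 124 and 126 CPM and fell by 0.77 (adjusted p = 0.00845). Gtf2i, a transcription factor deleted in Williams syndrome, fell by 0.62 (adjusted p = 0.00845), from 437 to 550 CPM down to 310 to 333 CPM. Ppp1r12c, a myosin phosphatase subunit, fell by 0.75 (adjusted p = 0.0224). Parp6, a mono-ADP-ribosyltransferase, fell by 0.65 (adjusted p = 0.0279). Anxa6, a calcium-dependent membrane-binding annexin, fell by 0.94 (adjusted p = 0.0383). Ncaph2, a condensin II subunit with 19.7% of its exonic bases shared with other genes, fell by 0.93 (adjusted p = 0.0413). Lamp5, a vesicle membrane protein of some GABAergic neurons, was at 82.1, 44.9, 70.9 and 73.6 CPM against 29.3, 46.8, 24.8 and 35.7 CPM (-0.99, SE 0.21, adjusted p = 0.0465), and the groups overlap through mouse 2 of each.

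Promoter sequence was examined because FOXP2 binds DNA at a forkhead core. RefSeq's table (GRCm38.p6, 250 bases before to 50 after each start) held an entry for 27 of the 33 called genes. The core TGTTTAC, searched on both strands, occurred in 3 of these 27 (11.1%), against 310 of 10256 tested genes with an entry (3.02%) and 3.65% of all 32851 promoters in the table. The 3 genes, Mtmr14, Sidt2 and Vars2, all fell. The variant TGTTTAT occurred in 0 of 27 and in 3.07% of tested genes. The AP-1 site TGANTCA occurred in 1 of 27, Aldh1a1, and in 5.98% of tested genes. These are matches of letters in a short window and not measured binding.

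The 4 promoters with a match are given 5' to 3' on the gene's strand, with the match in capitals. In Mtmr14 (chr6:113237593-113237892, plus strand) the core lies on the opposite strand and reads GTAAACA here, starting at position -21 with the start site at 0. In Sidt2 (chr9:45955200-45955499, minus strand) it starts at -16, in Vars2 (chr17:35667543-35667842, minus strand) at -187, and the AP-1 match in the upstream of 2 Aldh1a1 entries (chr19:20492333-20492632, plus strand) at -57.
Mtmr14: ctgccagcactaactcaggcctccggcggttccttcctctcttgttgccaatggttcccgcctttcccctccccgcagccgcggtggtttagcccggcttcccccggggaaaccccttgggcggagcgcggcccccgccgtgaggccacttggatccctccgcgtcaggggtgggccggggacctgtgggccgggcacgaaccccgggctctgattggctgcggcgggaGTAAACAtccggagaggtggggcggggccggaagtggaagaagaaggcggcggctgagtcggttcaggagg
Sidt2: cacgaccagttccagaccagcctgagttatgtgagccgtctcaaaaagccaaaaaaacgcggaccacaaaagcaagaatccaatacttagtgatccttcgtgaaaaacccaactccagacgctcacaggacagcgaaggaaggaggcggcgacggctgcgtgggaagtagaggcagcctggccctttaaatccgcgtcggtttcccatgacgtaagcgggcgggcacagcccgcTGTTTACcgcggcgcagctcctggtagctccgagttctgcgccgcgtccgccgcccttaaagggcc
Vars2: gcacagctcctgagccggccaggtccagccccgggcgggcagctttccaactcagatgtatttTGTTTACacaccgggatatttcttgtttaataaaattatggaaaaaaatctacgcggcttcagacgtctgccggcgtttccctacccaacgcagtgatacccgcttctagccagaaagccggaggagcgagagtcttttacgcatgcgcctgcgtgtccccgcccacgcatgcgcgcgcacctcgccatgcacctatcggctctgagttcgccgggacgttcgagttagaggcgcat
Aldh1a1: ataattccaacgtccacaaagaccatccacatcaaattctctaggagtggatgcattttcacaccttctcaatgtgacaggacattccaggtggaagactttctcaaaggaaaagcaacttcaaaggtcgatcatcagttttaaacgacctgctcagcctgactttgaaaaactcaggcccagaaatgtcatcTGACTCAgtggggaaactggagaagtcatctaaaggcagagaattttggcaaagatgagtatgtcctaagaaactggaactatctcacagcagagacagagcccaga
In Mtmr14 and Sidt2 the core is close to the start site, in promoters with 69.7% and 58.7% G and C, whereas in Vars2 it is far upstream.

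The response in BACHD mice was set beside that in control mice, which shares no library with it. In control mice 31 genes were called (0.229% of tested genes), 19 up and 12 down. The 11 genes called in both, 33.3% of the BACHD calls and 35.5% of the control calls, included Foxp2, Pou4f1, Jun and Rab3b among the rises and Col4a2, Pde2a, Dnttip1, Dgki, Map2k5 and Cacna2d3 among the falls. Leaving Foxp2 aside, all 11 genes that rose in BACHD mice were higher in control mice too, with a median of 1.22 there and 1.46 in BACHD mice, and all 21 that fell were lower, with medians of -0.74 and -0.97. Over all tested genes 49.4% were higher in control mice with the Foxp2 virus. Read the other way, 15 of the 18 other genes that rose in control mice were higher in BACHD mice (median 0.48 against 1.43) and all 12 that fell were lower (-0.83 against -0.95).

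No gene passed the test of the interaction (0% of tested genes). At an unadjusted p under 0.05 there were 516, among them 7 of the 33, and DESeq2 called 3. Among genes called in BACHD mice the interaction was furthest from 0 relative to its error after Foxp2 in Tomm6, which was at 33.8 to 39.5 CPM in Con+Con and at 32.8 to 44.4 CPM in Con+Foxp2 (interaction -0.96, unadjusted p = 0.00291). Hook2 fell by 1.67 in BACHD mice and gave -0.57 in control mice (interaction -1.10, unadjusted p = 0.00563), and Chat gave an interaction of -1.40 (unadjusted p = 0.0114). Positive interactions were those of Jchain (4.71, unadjusted p = 0.00431), Pou4f1 (3.97, unadjusted p = 0.0137) and Styk1 (3.57, unadjusted p = 0.0151). Each of these had at most 1 read in BACHD+Con, so the size depends on the fit. Col4a2 gave an interaction of 0.01 (unadjusted p = 0.945). The different level of Foxp2 in the genotypes stands beside each of these values, and its part in them was not tested.

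**Figure D5:**
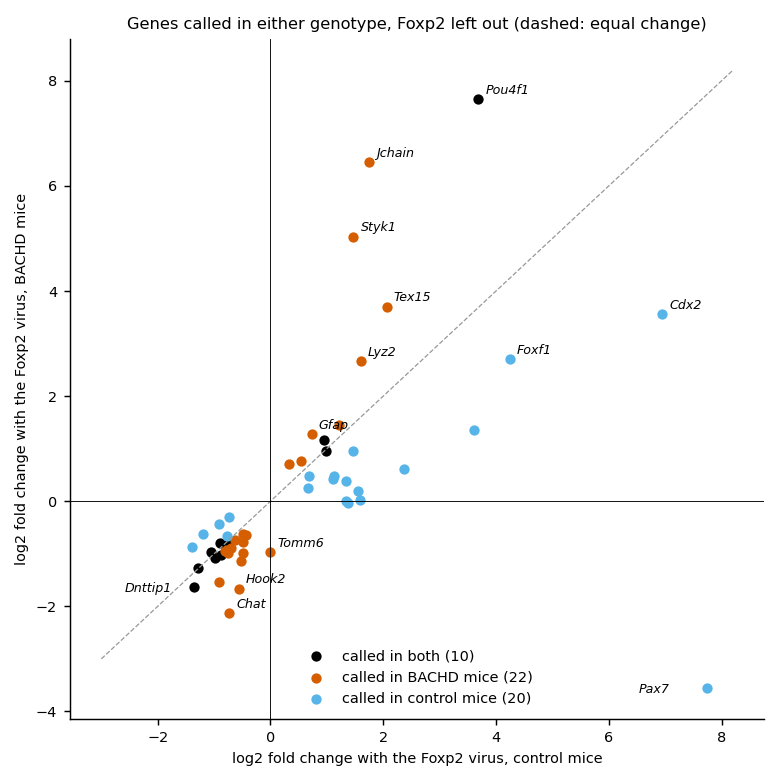
Log2 fold change with the Foxp2 virus in control mice (horizontal axis) and in BACHD mice (vertical axis) for the 52 genes other than Foxp2 called in either genotype, 10 in both (black), 22 in BACHD mice (orange) and 20 in control mice (blue); the dashed line marks equal change. Of the 52, 49 have the same sign in both, Pax7 lies at the lower right, and fitted values of genes without reads in a group depend on the fit.

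The calls differed in how far they rested on single mice. Leaving out each of the 8 BACHD mice in turn left 9 to 26 genes called, 9 when BACHD+Con mouse 3 was omitted, 18 when BACHD+Con mouse 2 or BACHD+Foxp2 mouse 4 was, and 20 when BACHD+Con mouse 1 was. Foxp2, Col4a2, Pde2a, Dnttip1, Pou4f1, Hook2, Mtmr14, Gfap and Tpcn1 were called in all 8 of these fits. Chat, Dgki, Evl, Gtf2i and Jun lost the call, among these fits, only without BACHD+Con mouse 3 (adjusted p = 0.0698 in each), and Sidt2 also without BACHD+Foxp2 mouse 4. The other 18 lost it in 3 to 7 of the 8 fits, with adjusted p up to 0.228 for Cacna2d3, 0.213 for Lamp5 and 0.187 for Tomm6. Of the genes called in all 8 fits, 4 lost the call without the 2 BACHD+Con libraries lowest in cortical markers. They were Pou4f1 (adjusted p = 0.067), Hook2 (0.141), Mtmr14 (0.196) and Tpcn1 (0.196). None of the 33 changed direction in any alternative run.

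In the authors' deposited table of the same comparison 45 genes have an adjusted p under 0.05, 14 with a positive and 31 with a negative log2 fold change. Of the 33 genes called here 30 are among them. Of the others, Tomm6 has an adjusted p of 0.0686 there, and Pou4f1 and Styk1 have none. All 33 have the same sign there, but both results rest on the same mice, so this is not independent support. In the authors' deposited table Foxp2 has a log2 fold change of 3.21, Col4a2 of -1.07, Chat of -0.97 and Gfap of 0.80. These values are smaller in size than those of edgeR, also for genes of few reads such as Jchain (1.02) and Styk1 (0.42).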

How the data were processed

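Striatal RNA of 16 mice was profiled, and the 8 BACHD libraries are the subject here. The authors deposited raw read counts per gene symbol (24421 symbols, with 5 summary lines left out here). Alignment and counting tools in the submitters' processing notes are STAR 2.4.0 and HTSeq, with mm10 as build and DESeq2 also listed. The sources used here do not say if strand was used in counting. The deposited comparison table of the authors holds log2 fold changes and p-values, which entered no test.

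All 16 libraries were fitted together with edgeR 4.0.16 in R 4.3.3 (filterByExpr, trimmed-mean scaling, quasi-likelihood test, a mean per group, 12 residual degrees of freedom, two-sided), with Benjamini-Hochberg adjustment over 13563 genes. SE is the log2 fold change divided by the square root of F. Alternatives used DESeq2 1.42.0, limma 3.58.1 (voom), other filters and scalings, covariates and left-out mice. The code was tested on simulated data. Coordinates are GENCODE M21 on GRCm38, from 1, and promoters are RefSeq's.

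Some genes are not reported here. Otherwise, named genes are all genes called in BACHD mice, a panel of 22 and, from each of 36 lists, the 3 tested genes of lowest p. Members and lists were chosen with earlier results of these data known, so no list count is independent support, and Pax7 and Msantd1 were picked with their values in view. P-values measure the spread between these mice. The 28 pairs of BACHD libraries all differed by more than counting error.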

Additional observations from a re-analysis of the deposited data

Results flagged for a closer look

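In 132 groups of 4 mice, over the called genes, the panel and the marker sums, 10 had 1 mouse far from the other 3 by Dixon's criterion, which chance gives in about 1 group in 20. Among rises, Pou4f1 was highest in BACHD+Foxp2 mouse 4 at 16.3 CPM, and Jun was lowest in BACHD+Foxp2 mouse 1 at 78.3 CPM. Jchain stood apart in BACHD+Con mouse 4 at 0.385 CPM and Styk1 in BACHD+Con mouse 3 at 0.336 CPM, which is 1 read in each, and Tex15 was at 0 CPM in BACHD+Con mouse 4. Among falls, Dnttip1 was highest in BACHD+Con mouse 2 at 79.3 CPM, with the other mice nearly equal, and Evl was lowest in BACHD+Foxp2 mouse 1 at 95.5 CPM. Aif1, the Iba1 gene, was at 16.2 CPM in BACHD+Con mouse 1. The choroid plexus sum stood apart in BACHD+Con mouse 2 at 10800 CPM and in BACHD+Foxp2 mouse 3 at 5110 CPM.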

How the results depend on the processing

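The count of 33 genes called in BACHD mice was 53 without a filter, 61 with DESeq2, 19 from the 8 BACHD libraries alone, 12 without the 2 libraries highest in choroid plexus markers, 5 without the 2 lowest in cortical markers and 9 to 26 over the fits without 1 mouse. For control mice, 31 became 75 without a filter, 74 with DESeq2 and 10 to 46 without 1 mouse. For the interaction, 0 became 3 without a filter, 3 with DESeq2, 2 with the cortical covariate and 0 to 1 without 1 mouse. With the mouse number as a replicate block, 22 genes were called in BACHD mice, 21 in control mice and 0 for the interaction. Same-numbered BACHD mice did not deviate together (correlations 0.003, -0.147, -0.147 and -0.072), so the numbers were not taken as pairs. The causes of these moves were not tested, beyond the smaller number of mice in fits that leave some out. No called gene changed sign, but some genes that were not called did. With the cortical covariate the log2 difference became 0.04 for Rarb, 0.09 for Ppp1r1b, 0.07 for Pdyn, 0.11 for Penk, 0.07 for Drd1, 0.10 for Scn4b, 0.84 for Chrnb4 and 0.16 for Adora2a. Without the 2 libraries lowest in cortical markers it was 0.05 for Rarb, 0.14 for Ppp1r1b, 0.18 for Pdyn, 0.10 for Penk, 0.12 for Ccdc153, -0.29 for Kcnc2, 3.98 for Kcne2, 1.14 for Clic6, 0.07 for Scn4b, 0.67 for Chrnb4, 0.15 for Adora2a and 0.09 for Trerf1. Without the 2 highest in choroid plexus markers it was 0.72 for Kcne2 and 0.15 for Adora2a, and 0.04 for Kcne2 with that list as a covariate. Over the fits without 1 mouse it ranged from -0.90 to 0.11 for Ccdc153, -5.03 to 4.47 for Kcne2 and -1.96 to 1.08 for Clic6 (highest without BACHD+Con mouse 2), from -0.24 to 0 for Htt and -0.46 to 0.02 for Pdyn (highest without BACHD+Con mouse 3), and from -0.64 to 1.07 for Gpr151 (highest without BACHD+Con mouse 4). The median of all genes moved by at most 0.02 under any scaling. At this depth, genes near 1 CPM rest on about 3 reads per library.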

Other observations

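Markers of the remaining cell types held no called gene. Of 15 tested oligodendrocyte markers 13 were higher and 2 lower with the Foxp2 virus, with a median log2 difference of 0.09 in BACHD mice and -0.34 in control mice. Their summed level was 5320 to 7290 CPM in the control-virus BACHD mice and 3090 to 8550 CPM in the Foxp2-virus BACHD mice. The lineage factor Olig1 was at 43, 44.3, 40.3 and 56.3 CPM against 58.9, 45.2, 84 and 79.7 CPM (0.54, edgeR adjusted p = 0.459). Of 6 tested markers of oligodendrocyte precursors 4 were higher (median 0.14). Cd4 was the only tested gene of the T and NK cell list (-0.25, edgeR adjusted p = 0.866). Cortical excitatory markers were higher in 11 of 12 (median 0.61, and -0.14 without the 2 libraries lowest in them). Choroid plexus and ependyma markers were lower in 9 of 13 (median -0.63), and their median was 2.51 without BACHD+Con mouse 2 and -2.36 without BACHD+Foxp2 mouse 3.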
